A study of Mus musculus with 18 samples.

Results

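The 8 genes described here encode insulin-like growth factor 1 (Igf1), its receptor (Igf1r) and 6 binding proteins (Igfbp2 to Igfbp7). They were taken by gene symbol from 51499 assembled loci, and all 8 were found, each alone in its locus. RNA of mouse embryonic fibroblasts (MEFs) was sequenced to ask whether AGO2, the Argonaute protein that cuts RNAs matched by small RNAs, lowers particular mRNAs during stress of the endoplasmic reticulum (ER). Cells labelled Ago2+/+ or Ago2-/- received the solvent DMSO, tunicamycin at 3 µg/ml, which blocks N-linked glycosylation, or 500 nM thapsigargin, an inhibitor of the pump that fills the ER with calcium. Stress lasted 6 h, and the methods of the study call the control cells untreated where the labels name DMSO. Each of the 6 groups had 3 libraries, 18 in all, and the groups labelled Ago2+/+ carry the name DCR1 in the library titles. The lines were not authenticated, although the absence of AGO2 from the Ago2-/- cells was checked by western blot according to the reporting summary of the study. The series design text and the reporting summary call the replicates biological, without saying how the cultures were separated.

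IGF1 is a secreted hormone and local growth factor that binds a receptor tyrosine kinase, IGF1R, and through it signals to the PI3K, AKT and MAP kinase pathways. Binding proteins hold IGF1 outside the cell, prolong its life and either keep it from the receptor or deliver it, and proteases that cleave them set it free. Fibroblasts make IGF1 and several binding proteins, and all of these secreted proteins are folded in the ER.

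The values are the deposited FPKM, fragment numbers corrected for transcript length and library size, which allow levels to be compared between genes per unit of length. Each group has 1 pooled FPKM, so no value below has an SD, no replicate check was possible and no p-value is given. The depth of the libraries is unknown. Differences are log2 ratios of FPKM + 0.1, which understate the change of genes with low values, and a difference was counted when it was at least 2-fold in a gene with at least 1 FPKM in one or both groups. Where a group was listed at 0, no fold is given.

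Several genes went against the labels, so each group is named by its label alone. With the Ago2-/- label, Ago2 itself read 5.61 FPKM under DMSO, 15.5 FPKM under tunicamycin and 20.7 FPKM under thapsigargin, and with the Ago2+/+ label it read 22.1, 5.75 and 17.0 FPKM. Transcripts of the Y chromosome (Ddx3y, Eif2s3y, Kdm5d, Uty) were at 6.03 to 32.3 FPKM in the groups labelled Ago2+/+ thapsigargin and Ago2-/- tunicamycin and were listed at 0 in the other 4. The locus of Xist, the RNA of the inactive X chromosome, was at 46.6 FPKM in Ago2+/+ DMSO, at 33.5 FPKM in Ago2-/- thapsigargin and at no more than 0.0574 FPKM elsewhere. Over 13032 loci with at least 1 FPKM in a group, the 6 groups formed 3 close pairs, each joining groups of different genotype label and different treatment, with Spearman correlations of 0.979 to 0.986. The other 12 pairs had correlations of 0.888 to 0.914, given as a description, since groups share the same loci and the pairs share groups. Genotype, treatment and the source of the cells therefore cannot be told apart in these values. The fibroblast markers Vim and Fn1 were at 46.4 FPKM or above in all groups, whereas Thy1 was listed at 0 throughout and Lum was at no more than 0.0138 FPKM.

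The sequences before the start sites of the 4 genes that varied most across the groups (Igfbp3, Igfbp7, Igfbp6 and Igf1) are shown so that their different base composition can be seen beside their levels. They are RefSeq sequences of GRCm38.p6, the 250 bases before an annotated start, written 5′ to 3′ on the gene's strand. All 8 genes had an entry, with 9 windows because Igfbp2 has a pair of starts. The window of Igf1 lies inside the GENCODE gene, which begins at position 87858265, so it precedes an internal start and not the first one. Capitals mark matches, on either strand, to TATAAA (the TATA box), CCAAT (the CCAAT box), GGGCGG (the GC box), TGANTCA (the AP-1 element) and CCACG, the last part of the ER stress element.
Igf1 (chr10:87860861-87861110, plus strand): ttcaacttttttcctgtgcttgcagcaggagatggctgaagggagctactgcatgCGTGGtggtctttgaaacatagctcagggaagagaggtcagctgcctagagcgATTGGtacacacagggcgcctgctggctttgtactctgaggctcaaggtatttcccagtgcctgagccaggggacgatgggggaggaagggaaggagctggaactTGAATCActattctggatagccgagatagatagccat
Igfbp3 (chr11:7213924-7214173, minus strand): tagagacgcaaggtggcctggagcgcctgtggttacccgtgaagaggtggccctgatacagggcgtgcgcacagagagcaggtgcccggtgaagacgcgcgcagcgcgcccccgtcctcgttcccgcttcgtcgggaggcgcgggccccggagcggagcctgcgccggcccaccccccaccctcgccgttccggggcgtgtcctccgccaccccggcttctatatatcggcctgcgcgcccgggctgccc
Igfbp6 (chr15:102143936-102144185, plus strand): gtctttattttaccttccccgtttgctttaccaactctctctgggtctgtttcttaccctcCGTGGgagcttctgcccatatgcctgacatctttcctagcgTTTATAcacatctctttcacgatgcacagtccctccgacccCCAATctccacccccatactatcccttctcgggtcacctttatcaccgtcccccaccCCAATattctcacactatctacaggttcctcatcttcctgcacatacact
Igfbp7 (chr5:77408046-77408295, minus strand): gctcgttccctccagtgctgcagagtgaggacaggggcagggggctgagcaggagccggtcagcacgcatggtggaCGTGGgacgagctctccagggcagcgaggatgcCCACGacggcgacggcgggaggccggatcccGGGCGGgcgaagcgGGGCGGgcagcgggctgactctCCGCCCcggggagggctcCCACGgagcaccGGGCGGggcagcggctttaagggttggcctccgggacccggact

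The windows differed in composition. That of Igfbp3 held 73.2% G and C with 32 CpG dinucleotides and that of Igfbp7 held 74% with 26, against medians of 52.4% and 6 over all 32851 windows of 27025 gene symbols. Those of Igf1 (52.8%, 5 CpG) and Igfbp6 (49.6%, 7 CpG) lay near these medians. The highest values were those of Igf1r (77.6%, 42 CpG), which varied little across the groups. Igfbp4 (69.2%, 22 CpG), Igfbp5 (58.8%, 10 CpG) and both windows of Igfbp2 (67.2%, 14 CpG and 56.4%, 11 CpG) also lay above the medians. Counted from -1 at the base before the start to the 5′-most base of a match, Igfbp6 held CCACG at -189, TATAAA at -148 and CCAAT at -107 and -50. Igf1 held CCACG at -195, CCAAT at -142 and TGANTCA at -37. Igfbp7 held GGGCGG at -110, -96, -74 and -44 and CCACG at -174, -141 and -56, and Igfbp3 held none of these letters. The full ER stress element, CCAAT and CCACG separated by any 9 bases so that it contains both shorter motifs, was in none of the 9 windows and in 0.113% of all windows. Of the 9 windows, 2 held TATAAA, 2 CCAAT, 3 GGGCGG, 2 TGANTCA and 4 CCACG, and the shares over all windows were 12.4%, 33.8%, 32.7%, 6.75% and 28.3%. A match describes the letters and is not evidence of binding.

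Across the 6 groups, the receptor was present at a near constant level, the ligand, Igfbp2 and Igfbp5 were low or listed at 0, and Igfbp3, Igfbp6 and Igfbp7 ranged widely. Igfbp7 and Igfbp3 reached the highest levels of the 8 genes. In RNA of whole cultures, fewer cells of a type and less RNA per cell cannot be told apart. The plot of all 48 group values shows which groups were high for each gene.

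**Figure D1:**
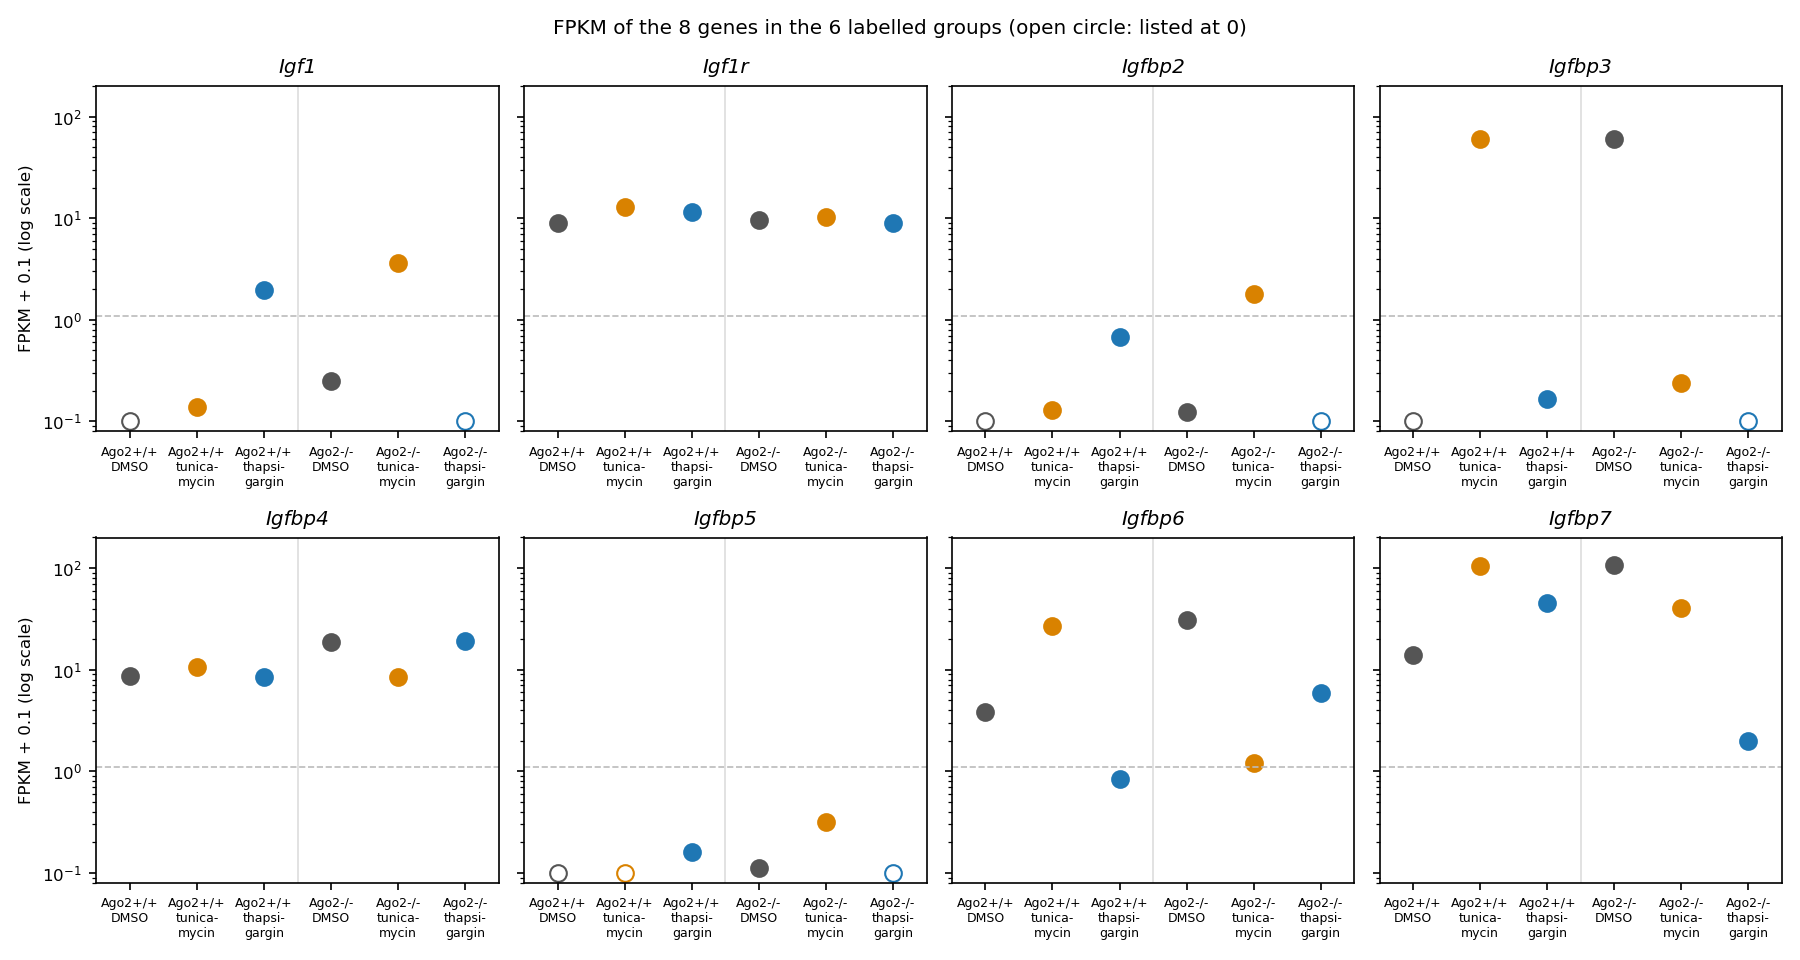
FPKM + 0.1 on a log scale for each of the 8 genes, 1 point per labelled group and 1 pooled value per point without error bars; grey is DMSO, orange tunicamycin, blue thapsigargin, the open circles are groups listed at 0 and the dashed line marks 1 FPKM. Igf1r lies between 8.83 and 12.9 FPKM in all groups, while Igfbp3 is at 60.7 and 59.7 FPKM in 2 groups and at no more than 0.138 FPKM in the other 4.

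Igf1, the ligand (ENSMUSG00000020053, locus chr10:87826377-87937042, plus strand), was low in these fibroblasts. With the Ago2+/+ label, Igf1 was listed at 0 under DMSO and had 0.0377 FPKM under tunicamycin and 1.86 FPKM under thapsigargin. With the Ago2-/- label, DMSO gave 0.15 FPKM and tunicamycin 3.51 FPKM, and thapsigargin was listed at 0. The 2 groups above 1 FPKM were thus Ago2-/- tunicamycin and Ago2+/+ thapsigargin, which lay within 2-fold of each other (1.89-fold), and the next group was 12.4-fold lower. Even at its highest, Igf1 ranked in the lower part of the expressed genes, at 84.6% from the top among loci with at least 1 FPKM. The assembled locus begins upstream of the GENCODE gene, which starts at position 87858265 of the same chromosome, so the locus may include fragments from outside the annotated gene.

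Igf1r, the receptor tyrosine kinase for IGF1 (ENSMUSG00000005533, chr7:67952827-68233668, plus strand), was present in all groups. Cells labelled Ago2+/+ had 8.84 FPKM with DMSO, 12.9 FPKM with tunicamycin and 11.4 FPKM with thapsigargin. The corresponding values of cells labelled Ago2-/- were 9.42, 10.2 and 8.83 FPKM. Neighbours in the order of levels differed by at most 1.13-fold, and the whole range was 0.54 on the log2 scale. Of the 13032 loci, 25.0% had a smaller range.

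Igfbp3 encodes the main carrier of IGF1 in blood, which is also secreted by fibroblasts (ENSMUSG00000020427, chr11:7206086-7213923, minus strand). It was either strongly present or nearly absent. Among Ago2+/+ groups it was listed at 0 with DMSO, at 60.7 FPKM with tunicamycin and at 0.0654 FPKM with thapsigargin. Among Ago2-/- groups it had 59.7 FPKM with DMSO and 0.138 FPKM with tunicamycin and was listed at 0 with thapsigargin. Its 2 high groups, Ago2+/+ tunicamycin and Ago2-/- DMSO, were 1.02-fold apart and placed it at 15.9% and 16.3% from the top of the expressed loci. The next group was 433-fold lower. Igfbp1, the liver-associated binding protein whose locus lies 3539 bp from that of Igfbp3 on chromosome 11, was listed at 0 in 5 groups and was at 0.0112 FPKM in Ago2-/- tunicamycin, so the neighbouring gene did not share the high level.

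Igfbp6 encodes a binding protein that prefers IGF2 over IGF1 (ENSMUSG00000023046, chr15:102144362-102149511, plus strand). Its order resembled that of Igfbp3 at the top but not at the bottom. Igfbp6 levels under the Ago2+/+ label were 3.71 FPKM for DMSO, 26.5 FPKM for tunicamycin and 0.747 FPKM for thapsigargin. Under the Ago2-/- label they were 30.8 FPKM for DMSO, 1.11 FPKM for tunicamycin and 5.74 FPKM for thapsigargin. The groups fell into 3 steps: Ago2-/- DMSO and Ago2+/+ tunicamycin within 1.16-fold, then after a gap of 4.62-fold Ago2-/- thapsigargin and Ago2+/+ DMSO within 1.55-fold, then after a gap of 3.34-fold Ago2-/- tunicamycin and Ago2+/+ thapsigargin within 1.49-fold.

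Igfbp7 encodes a matrix-associated protein with low affinity for IGFs (ENSMUSG00000036256, chr5:77310147-77408041, minus strand). It was the most abundant of the 8 genes in 5 of the 6 groups. Its Ago2+/+ values were 13.9 FPKM for DMSO, 105 FPKM for tunicamycin and 45.6 FPKM for thapsigargin. Its Ago2-/- values were 107 FPKM for DMSO, 40.8 FPKM for tunicamycin and 1.89 FPKM for thapsigargin. Ago2-/- DMSO and Ago2+/+ tunicamycin were again together at the top, 1.02-fold apart and within the top 8.52% of expressed loci. Ago2+/+ thapsigargin and Ago2-/- tunicamycin followed, 1.12-fold apart. The lowest groups, Ago2+/+ DMSO and Ago2-/- thapsigargin, were 7.34-fold apart, the widest gap within any of the 3 close pairs among those of the 8 genes with at least 1 FPKM in both groups. The assembled locus runs past the GENCODE gene, whose lower coordinate is 77349240.

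Igfbp4 encodes a binding protein that mainly holds IGFs away from the receptor (ENSMUSG00000017493, chr11:99041244-99054392, plus strand). It was present in all groups, within a narrower range than Igfbp3, Igfbp6 and Igfbp7. With the Ago2+/+ label, DMSO gave 8.50 FPKM, tunicamycin 10.6 FPKM and thapsigargin 8.44 FPKM. With the Ago2-/- label, the values were 18.6, 8.35 and 19.2 FPKM. Ago2-/- thapsigargin and Ago2-/- DMSO were 1.04-fold apart at the top, and no step in the order exceeded 1.75-fold.

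Igfbp2 and Igfbp5 lie next to each other on chromosome 1, on opposite strands with 5457 bp between their loci, and both were low. Igfbp2, a binding protein abundant in fetal tissue (ENSMUSG00000039323, chr1:72824503-72852474, plus strand), was listed at 0 in Ago2+/+ DMSO and had 0.0288 FPKM in Ago2+/+ tunicamycin and 0.576 FPKM in Ago2+/+ thapsigargin. It had 0.0245 FPKM in Ago2-/- DMSO and 1.68 FPKM in Ago2-/- tunicamycin and was listed at 0 in Ago2-/- thapsigargin. Its highest groups were those of Igf1, here 2.91-fold apart, with the next group 20.0-fold lower. Igfbp5, a binding protein that attaches to the extracellular matrix (ENSMUSG00000026185, chr1:72857932-72874884, minus strand), stayed below 1 FPKM in every group: it was listed at 0 in 3 groups and was at 0.0120, 0.0594 and 0.218 FPKM in Ago2-/- DMSO, Ago2+/+ thapsigargin and Ago2-/- tunicamycin. No count below can include Igfbp5, and its level was too low to be read as a difference.

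The summed level of the 6 binding proteins also fell into 3 steps along the close pairs. It was 26.1 FPKM in Ago2+/+ DMSO and 26.9 FPKM in Ago2-/- thapsigargin. It was 55.5 FPKM in Ago2+/+ thapsigargin and 52.3 FPKM in Ago2-/- tunicamycin. It was 203 FPKM in Ago2+/+ tunicamycin and 216 FPKM in Ago2-/- DMSO.

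**Figure D2:**
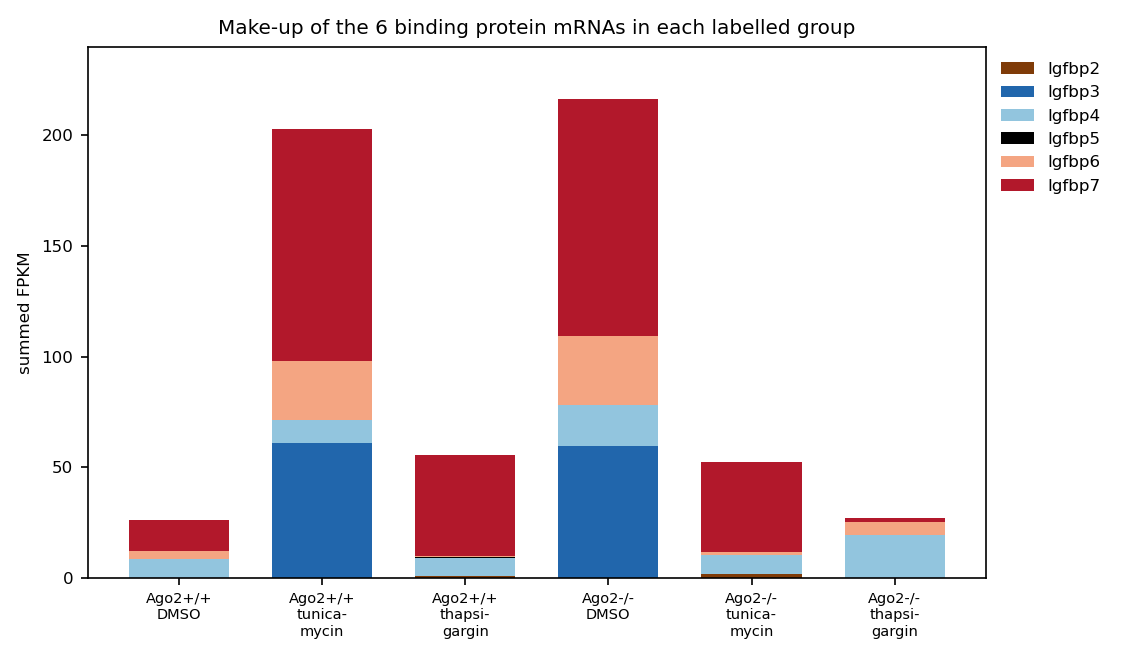
Summed FPKM of the 6 binding protein mRNAs in each labelled group, with each bar split by gene and starting at 0. Igfbp7 is the main part of 5 bars, Igfbp3 is visible in Ago2+/+ tunicamycin and Ago2-/- DMSO alone, and Igfbp4 is the main part of the bar of Ago2-/- thapsigargin.

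Igfbp7 made up 53.2% (DMSO), 51.8% (tunicamycin) and 82.2% (thapsigargin) of the sum under the Ago2+/+ label, and 49.5%, 78.0% and 7.03% under the Ago2-/- label. Igfbp3 made up 29.9% in Ago2+/+ tunicamycin and 27.6% in Ago2-/- DMSO, and no more than 0.264% in any other group. Igfbp4 ranged from 5.22% in Ago2+/+ tunicamycin to 71.6% in Ago2-/- thapsigargin. Igfbp6 ranged from 1.35% in Ago2+/+ thapsigargin to 21.4% in Ago2-/- thapsigargin. In the 2 groups with nearly equal sums, Ago2+/+ DMSO and Ago2-/- thapsigargin, the main binding protein mRNA was thus Igfbp7 in the first and Igfbp4 in the second.

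Tunicamycin was compared with DMSO within each genotype label. With the Ago2+/+ label, 5 of the 8 genes reached 1 FPKM and 3 were at least 2-fold apart, all higher, where 20.0% of all loci compared passed the same mark. Igfbp6 was higher by 2.81 and Igfbp7 by 2.91 on the log2 scale, and Igfbp3 was at 60.7 FPKM against a DMSO group listed at 0. Igf1r (0.54) and Igfbp4 (0.31) did not pass. With the Ago2-/- label, 7 genes reached 1 FPKM and 6 passed, against 24.9% of all loci. Igf1 (log2 ratio 3.86) and Igfbp2 (3.83) were higher, and Igfbp3 (-7.97), Igfbp4 (-1.14), Igfbp6 (-4.67) and Igfbp7 (-1.39) were lower. Igfbp3, Igfbp6 and Igfbp7 were therefore higher with tunicamycin under one genotype label and lower under the other, and the receptor moved by less than 2-fold under both.

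Thapsigargin gave another set of directions. Under the Ago2+/+ label 5 genes reached 1 FPKM and 3 passed, against 19.1% of all loci: Igf1 was at 1.86 FPKM against a DMSO group listed at 0, Igfbp7 was higher by 1.71 on the log2 scale and Igfbp6 was lower (-2.17). Under the Ago2-/- label 3 of 5 passed, against 20.4% of all loci, all lower: Igfbp6 (-2.40), Igfbp7 (-5.75) and Igfbp3, which was at 59.7 FPKM under DMSO and listed at 0 under thapsigargin. Igfbp6 was thus lower with thapsigargin under both labels, while Igfbp7 was higher under one and lower under the other. Igfbp4 differed by -0.01 and 0.05, and Igf1r by 0.36 and -0.09. The comparisons of both stressors share their DMSO group within a label.

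**Figure D3:**
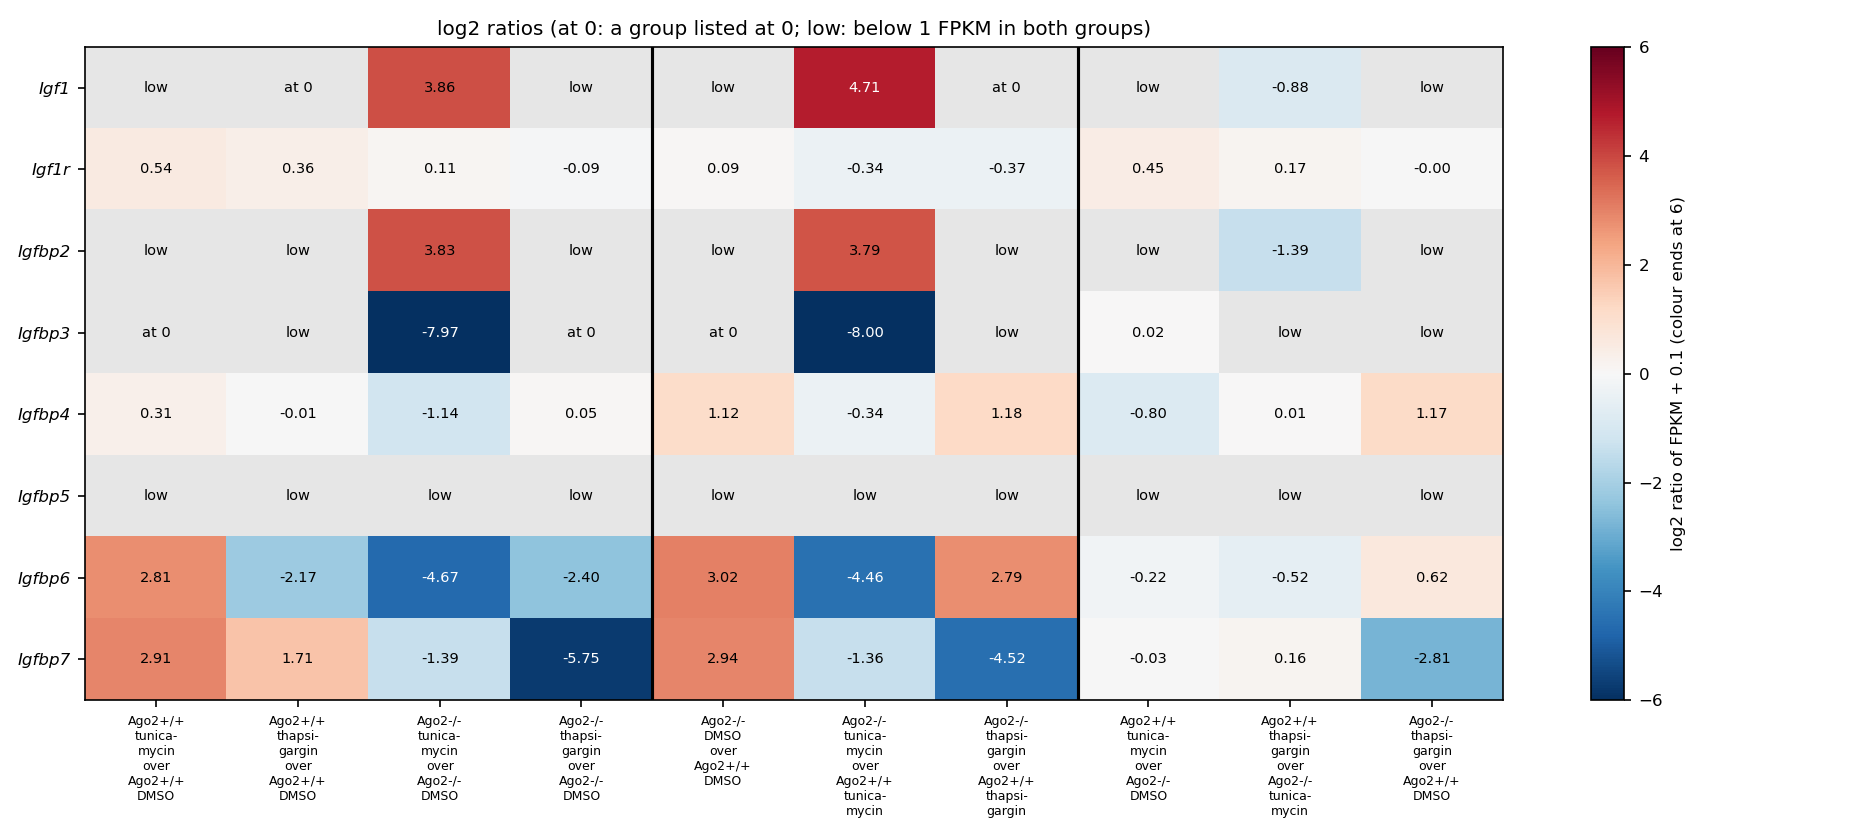
Log2 ratios of FPKM + 0.1 for the 8 genes in the 4 comparisons of a stressor with DMSO, the 3 genotype contrasts and the 3 close pairs, separated by black lines; red is higher and blue lower in the group named first, with colour ending at 6. Grey cells hold genes below 1 FPKM in both groups or with a group listed at 0. In the close pairs on the right, only Igfbp2, Igfbp4 and Igfbp7 have a cell past 2-fold, and the other coloured cells are paler.

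The genotype contrast under DMSO gave 4 genes of 5 that reached 1 FPKM, where 20.0% of all loci passed, all higher in the group labelled Ago2-/-. Igfbp4 was higher by 1.12, Igfbp6 by 3.02 and Igfbp7 by 2.94 on the log2 scale, and Igfbp3 was at 59.7 FPKM against 0. Under tunicamycin, 5 of 7 genes passed, against 24.3% of all loci. Igf1 (4.71) and Igfbp2 (3.79) were higher in the group labelled Ago2-/-, and Igfbp3 (-8.00), Igfbp6 (-4.46) and Igfbp7 (-1.36) were lower. Under thapsigargin, 4 of 5 genes passed, against 19.6% of all loci: Igfbp4 (1.18) and Igfbp6 (2.79) were higher, Igfbp7 (-4.52) was lower, and Igf1 was listed at 0 against 1.86 FPKM. No gene of the 8 kept a difference of at least 2-fold in 1 direction through all 3 treatments. Igf1r differed by 0.09, -0.34 and -0.37.

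The same genes were compared within the 3 close pairs, which were formed from these data and not by the design. Between Ago2+/+ tunicamycin and Ago2-/- DMSO, 0 of the 5 genes that reached 1 FPKM were at least 2-fold apart, and 1.83% of all loci were. The log2 ratios were 0.02 for Igfbp3, -0.03 for Igfbp7, -0.22 for Igfbp6, 0.45 for Igf1r and -0.80 for Igfbp4. Between Ago2+/+ thapsigargin and Ago2-/- tunicamycin, 1 of 6 genes passed, against 2.19% of all loci. Igfbp2 was lower (-1.39), and Igf1 (-0.88), Igfbp6 (-0.52) and Igfbp7 (0.16) did not pass. Between Ago2-/- thapsigargin and Ago2+/+ DMSO, 2 of 4 genes passed, against 4.11% of all loci. Igfbp4 was higher (1.17) and Igfbp7 lower (-2.81), and Igfbp6 (0.62) did not pass. In the remaining 12 pairs of groups, 3 to 6 genes were at least 2-fold apart, with 19.1% to 24.9% of all loci compared. Those of the 8 genes below 1 FPKM in both groups of a pair could not be counted there.

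For Igfbp3 and Igfbp6, every close pair was closer than every other pair on the log2 scale with the pseudocount of 0.1 FPKM. The largest difference of Igfbp6 within a close pair was 0.62 on the log2 scale and the smallest in the other 12 pairs was 1.65. For Igfbp3 these were 0.52 and 0.73, both between groups at no more than 0.138 FPKM where the pseudocount weighs heavily, and the other pairs reached 9.25. The order of Igfbp3 depends on that pseudocount. In plain FPKM, Ago2+/+ thapsigargin (0.0654) lay nearer to Ago2+/+ DMSO (0) than to its close partner Ago2-/- tunicamycin (0.138). None of the other genes showed this order. Igfbp7 differed by up to 2.81 within a close pair and by as little as 1.20 between others, and Igfbp4 by up to 1.17 and as little as 0.011. For Igfbp2 these values were 1.39 and 0.316, for Igf1 0.883 and 0.461, and for Igf1r 0.447 and 0.090. Those of Igfbp5, below 1 FPKM throughout, were 0.998 and 0. The directions of the genotype and stressor comparisons above move with these pairs, and with Ago2, Xist and the Y-linked genes, and the part of the pairing in them was not tested.

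The range over the groups, on the log2 scale, was 9.25 for Igfbp3, 5.75 for Igfbp7, 5.19 for Igfbp6, 5.18 for Igf1 and 4.15 for Igfbp2. These exceeded the ranges of 99.7%, 96.7%, 95.2%, 95.1% and 91.6% of the 13032 loci, whose median range was 0.86 and of which 42.6% were at least 2-fold apart between some groups. Igfbp4, with a range of 1.19, exceeded 65.0%. The genes are therefore a mixture of widely and narrowly ranging ones, with the receptor at the narrow end.

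Genes with the most similar course over the 6 groups were taken from 8295 loci with a single gene name and at least 10 FPKM in a group, by the Euclidean distance of log2 values after each gene's own mean was subtracted. Those closest to Igf1 were Col12a1 (distance 1.12), Akap12 (1.19) and Tnc (1.37), of which Col12a1 and Tnc encode matrix proteins. Col12a1 was at 48.9 and 55.3 FPKM in the 2 groups where Igf1 was above 1 FPKM and at no more than 3.01 FPKM in the others. Closest to Igfbp2 were Fstl1 (0.905), Rab32 (1.16) and Ccl7 (1.24). Fstl1 was at 222 FPKM in Ago2+/+ thapsigargin, 312 FPKM in Ago2-/- tunicamycin and 29.1 to 42.2 FPKM elsewhere. Igfbp2 was at 0.576 and 1.68 FPKM in these groups and at no more than 0.0288 FPKM elsewhere. The pseudocount understates the change of a gene as low as Igfbp2, and how far these distances depend on it was not tested. Among the 8 genes themselves, the closest pair was Igf1 and Igfbp2, at 1.48. Nearly as close were Igf1r and Igfbp5, at 1.51, and Igf1r and Igfbp4, at 1.53. Igfbp5 was at no more than 0.218 FPKM, and the pseudocount flattens the course of such low values. The same holds for Igf1 and Igfbp2 outside their 2 highest groups, so their distance is not evidence of a shared course there. The course of Igf1r was nearest to those of Rps6-ps1 (0.203), Jdp2 (0.226) and Ptcd1 (0.239).

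For Igfbp3 the nearest were Cp, which encodes the copper-binding plasma protein ceruloplasmin (1.02), the homeobox gene Hoxc8 (1.37) and the cadherin gene Cdh6 (1.46). Cp was at 112 and 140 FPKM in Ago2+/+ tunicamycin and Ago2-/- DMSO and at no more than 0.652 FPKM in the other groups. Hoxc8 and Cdh6 were likewise at 23.2 to 25.6 FPKM in those 2 groups and listed at 0 in the other 4. For Igfbp6 the nearest were Syt7 (0.608), Isyna1 (0.677) and Fam213a (0.917). For Igfbp7 they were Tpd52l1 (0.605), Birc3 (0.781) and Zcchc3 (1.43). Igfbp4 was nearest to Rnf149 (0.514), Nudt14 (0.615) and Ube2w (0.616).

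Of 41 other genes of the IGF pathway, 32 were at 1 FPKM or more in a group. Of these, 12 were at least 2-fold apart between their highest and lowest group, where 42.6% of the 13032 loci were. As a list they therefore did not vary more often than all loci, and the wide ranges below are those of single genes. The other ligand, Igf2, whose locus also holds AC013548.1, was at no more than 0.298 FPKM. The carrier Igfals, which holds IGF1 and IGFBP3 in the blood complex, was at no more than 0.0487 FPKM, and Igfbpl1 at no more than 0.0724 FPKM. Neither ligand of the receptor was thus above 3.51 FPKM in any group. Of the receptors, Insr was at 5.21 to 9.09 FPKM, Igf2r, which takes up IGF2 for degradation, at 15.6 to 24.3 FPKM, and Insrr at no more than 0.00687 FPKM. Like Igf1r, Insr and Igf2r stayed within 2-fold across all groups.

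**Figure D4:**
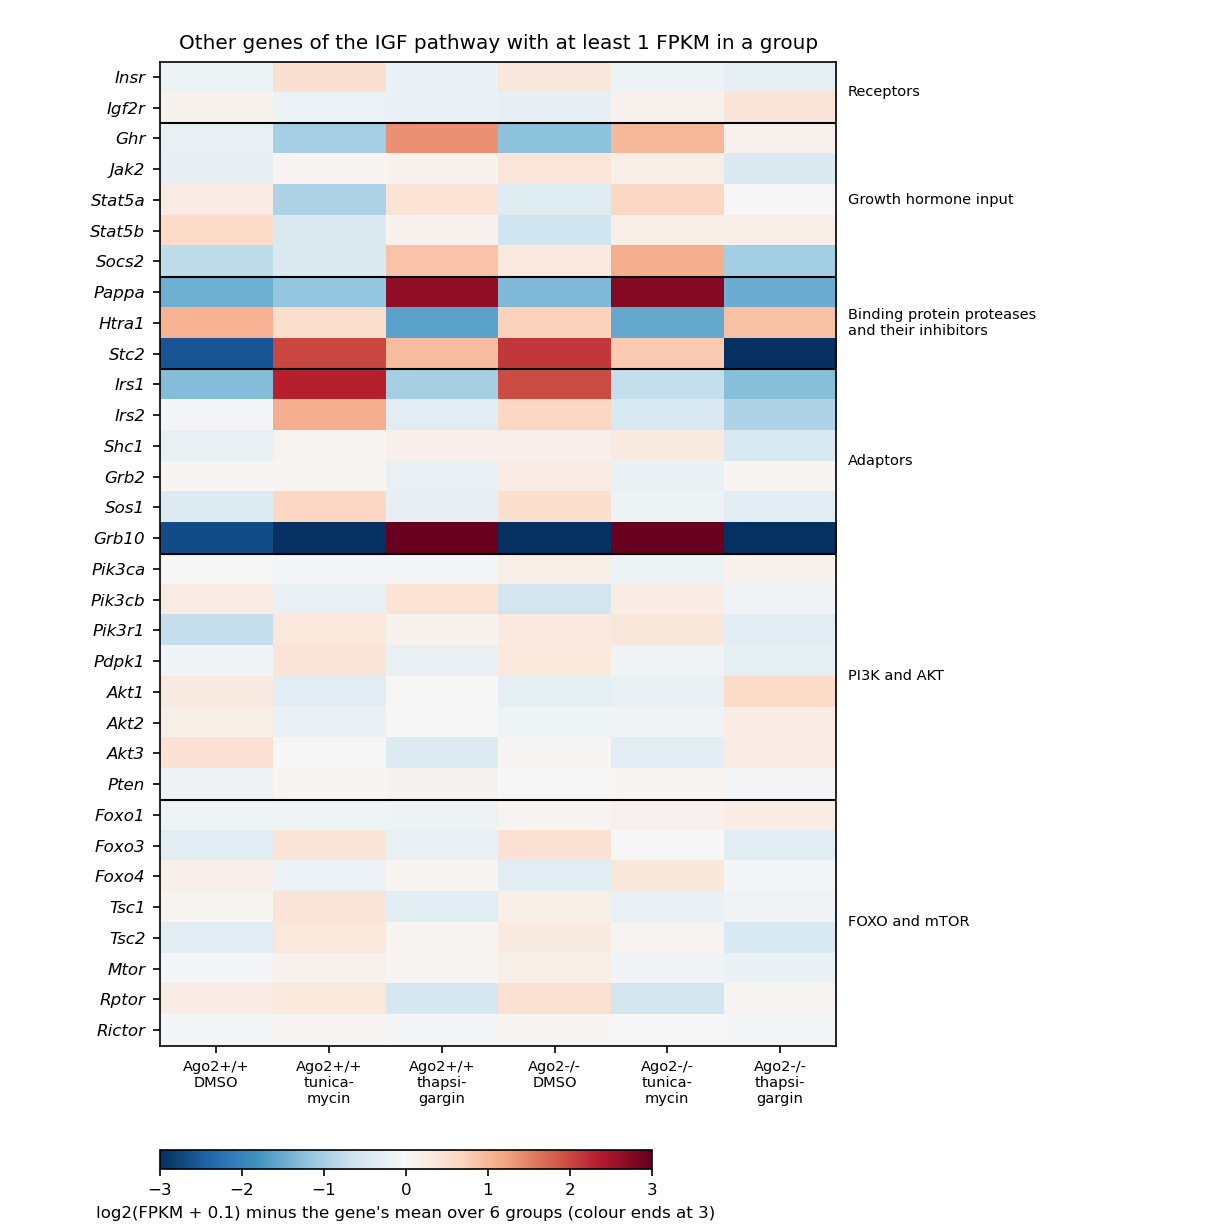
Log2 of FPKM + 0.1 minus the gene's mean over the 6 groups, for the 32 other pathway genes with at least 1 FPKM in a group, ordered by role; red is above and blue below the gene's mean, with colour ending at 3. The strongest colours are those of Grb10, Stc2, Pappa and Irs1, and the rows of the receptors, AKT, FOXO and mTOR genes are pale.

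The genes that act on binding proteins outside the cell differed widely. Pappa, a protease that cleaves IGFBP4 and frees IGF1, was at 1.74 FPKM in Ago2+/+ thapsigargin and 1.85 FPKM in Ago2-/- tunicamycin, the groups where Igf1 was highest, and at no more than 0.0308 FPKM elsewhere. Stc2, an inhibitor of that protease, was at 13.7 and 14.9 FPKM in Ago2+/+ tunicamycin and Ago2-/- DMSO, at 6.37 and 5.83 FPKM in Ago2+/+ thapsigargin and Ago2-/- tunicamycin, and at 0.470 and 0.254 FPKM in Ago2+/+ DMSO and Ago2-/- thapsigargin. Htra1, a secreted serine protease that cleaves matrix proteins and IGFBP5, was at 17.8 and 18.8 FPKM in Ago2+/+ thapsigargin and Ago2-/- tunicamycin and at 79.2 to 112 FPKM in the other 4 groups. None of these 3 genes was counted as 2-fold apart within a close pair. Pappa and Stc2 were below 1 FPKM in both groups of some close pairs, however, and could not be counted there.

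Within the cell, the widest differences were those of 2 adaptors downstream of the receptor, Grb10 and Irs1, whereas the adaptors Shc1 and Grb2 stayed within 2-fold. Irs1, the adaptor that passes the signal to PI3K, was at 13.3 FPKM in Ago2+/+ tunicamycin and 10.2 FPKM in Ago2-/- DMSO, the groups where Igfbp3 was high, and at 0.974 to 1.51 FPKM in the others. Irs2 was at 22.3 and 16.1 FPKM in the same groups and at 5.44 to 10.05 FPKM elsewhere. Grb10, an adaptor that dampens signalling from the insulin and IGF1 receptors, was at 205 FPKM in Ago2+/+ thapsigargin and 223 FPKM in Ago2-/- tunicamycin and at no more than 0.176 FPKM elsewhere. Its levels were highest in the groups where Igf1 was highest.

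Genes of the growth hormone input to Igf1 differed less than Grb10 and Irs1. Ghr, the growth hormone receptor, was at 17.1 and 12.9 FPKM in Ago2+/+ thapsigargin and Ago2-/- tunicamycin and at 2.72 to 7.15 FPKM in the other groups. Socs2, a feedback inhibitor of that receptor, was at 6.13 and 7.28 FPKM in those 2 groups and at 1.60 to 4.16 FPKM in the others. Stat5a, a transcription factor that carries the signal to Igf1, ranged from 1.74 to 5.26 FPKM. Further downstream, Akt1 was at 95.3 to 181 FPKM and Pik3cb at 10.5 to 20.5 FPKM, both within 2-fold. The regulatory subunit Pik3r1 was at 3.88 to 8.05 FPKM and passed 2-fold in the comparison of tunicamycin with DMSO under the Ago2+/+ label. Of the FOXO and mTOR genes, Rptor (10.3 to 20.5 FPKM), Tsc2 (28.9 to 49.9 FPKM) and Foxo3 (6.19 to 10.5 FPKM) had the widest ranges, each within 2-fold.

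Counted in the same comparisons, the other pathway genes passed 2-fold at shares that can be set beside those of all loci above. Tunicamycin against DMSO gave 7 of 30 genes (23.3%) under the Ago2+/+ label and 7 of 32 (21.9%) under the Ago2-/- label. Thapsigargin gave 6 of 32 (18.8%) and 5 of 30 (16.7%). The genotype contrasts gave 5 of 30 (16.7%) under DMSO, 9 of 32 (28.1%) under tunicamycin and 6 of 32 (18.8%) under thapsigargin. In the tunicamycin contrast Ghr, Stat5a, Socs2, Pappa and Grb10 were higher in the group labelled Ago2-/- and Htra1, Stc2, Irs1 and Irs2 were lower. In the 3 close pairs, 0 of 30, 0 of 32 and 0 of 28 genes passed.

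Markers of other cell types moved with some of these groups. The 5 markers of myofibroblasts and smooth muscle summed to 2418 and 1800 FPKM in Ago2+/+ thapsigargin and Ago2-/- tunicamycin, the groups where Igf1, Igfbp2, Pappa and Grb10 were highest, and to 2.49 to 8.996 FPKM in the other 4. Of this list 4 genes reached 1 FPKM in a group, with Acta2 at 1644 and 1252 FPKM in the 2 high groups and Myh11 at no more than 0.0730 FPKM in any. Des went the other way, at 2.95 and 2.58 FPKM in Ago2+/+ DMSO and Ago2-/- thapsigargin and at no more than 0.499 FPKM elsewhere. Of 3 markers of skeletal myoblasts, Myf5 alone was at 18.9 and 11.8 FPKM in Ago2+/+ tunicamycin and Ago2-/- DMSO, where Igfbp3 was high, and it was listed at 0 in the other 4, with Myod1 and Myog at no more than 0.0201 FPKM. The 11 fibroblast markers summed to 3000 to 3956 FPKM, with 9 of them at 1 FPKM or more in a group, but single members moved with the groups. Col1a1 was at 521 and 651 FPKM in the 2 groups where Igf1 was highest and at 6.77 and 5.97 FPKM in the 2 where Igfbp3 was high. Col1a2 was at 410 and 577 FPKM against 26.8 and 23.7 FPKM in the same groups. Vim (1181 and 952 FPKM) and S100a4 (285 and 330 FPKM) were lowest where Igf1 was highest. Elsewhere Vim was at 1290 to 2634 FPKM, so its lower end was close. The locus of S100a4 also holds Gm42674 and S100a3, and was at 937 to 1967 FPKM elsewhere. The 5 epithelial markers summed to 0.198 to 2.003 FPKM, the 4 endothelial to 0.121 to 0.465 FPKM, and the 4 leukocyte and macrophage markers to 1.23 to 2.35 FPKM with Adgre1 listed at 0. The 4 adipocyte markers summed to 0.244 to 4.81 FPKM and did not move together. Pparg was at 4.13 and 3.09 FPKM where Igf1 was highest and at no more than 0.277 FPKM elsewhere. Fabp4 was at 0.674 and 0.922 FPKM in those groups but was highest in Ago2-/- thapsigargin, at 1.55 FPKM. Adipoq was listed at 0 in both groups where Igf1 was highest, and Plin1 was at no more than 0.0544 FPKM in any group. The 6 bone and cartilage markers summed to 9.97 to 27.7 FPKM, with Runx2 highest, at 20.6 and 21.3 FPKM, where Igfbp3 was high. The neural list, with Sox10 as its measured gene, reached 0.00361 FPKM and the 2 hepatocyte markers 0.00846 FPKM. The part of cell type in the levels of Igf1 and the binding proteins was not tested.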

How the data were processed

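According to the labels and methods, reads were aligned by the authors to GRCm38 (Ensembl release 91) with HISAT2 2.1.0. They assembled loci with StringTie 1.3.4d and quantified them with Cuffdiff 2.2.1, after FastQC 0.11.7. The sources used here state neither library scaling nor strandedness. The deposited FPKM is 1 value per group, pooled by the authors over 3 libraries, in a table of 772485 rows for 51499 loci and 15 pairs of groups. Its fold changes, test statistics, p-values and q-values are the authors' own comparisons and were not used. Libraries were grouped by title. For 4 libraries (replicate 2 of all 3 groups labelled Ago2+/+ and replicate 3 of Ago2-/- DMSO) the labels conflict on genotype, and the pooled values give no way to leave them out.

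Ratios were log2(FPKM + 0.1), for loci with at least 1 FPKM in one or both groups, counted at 2-fold without a test. The counting was tested on simulated data. Coordinates were counted from 1. Python 3.11.15 with pandas 2.3.3, numpy 2.4.6 and scipy 1.17.1 was used. All 8 genes were named in full. Of the other pathway genes, every ligand, carrier and receptor and up to 3 genes per role with the widest range were named, and for each gene with 1 FPKM the 3 loci with the nearest course. Genes, lists, close pairs and alternatives were chosen with earlier results of these data known. Alternatives were pseudocounts of 1 and 0.01 FPKM, other filters, marks of 1.5-fold and 4-fold, and centring on the median.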

Additional observations from a re-analysis of the deposited data

Results flagged for a closer look

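For 3 of the binding proteins, a stressor gave opposite directions in the groups labelled Ago2+/+ and Ago2-/-. With 1 pooled value per group, none of these differences between the labels was tested. With tunicamycin, Igfbp3 read 60.7 FPKM under the Ago2+/+ label against a DMSO group listed at 0, whereas under the Ago2-/- label its log2 ratio was -7.97. Igfbp6 had log2 ratios of 2.81 and -4.67 for the same comparison, and the second minus the first was -7.48. For Igfbp7 they were 2.91 and -1.39, with a difference of -4.30. With thapsigargin, Igfbp7 had log2 ratios of 1.71 and -5.75, with a difference of -7.46. All 4 results rest on the labels, with which the levels of Ago2, Xist and Y-linked genes did not accord.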

How the results depend on the processing

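Of 70 counts of genes past the fold mark under the alternatives, 60 stayed within 1.5 times the reported count. Requiring at least 1 FPKM in both groups left fewer genes, and the share of all loci past the mark fell too. The count for thapsigargin in the groups labelled Ago2+/+ was then 1 instead of 3 (10.7% of loci instead of 19.1%). That for tunicamycin in the groups labelled Ago2-/- was 3 instead of 6 (15.7% of loci instead of 24.9%). The genotype contrast under tunicamycin was 2 instead of 5 (15.0% of loci instead of 24.3%). Under thapsigargin it was 2 instead of 4 (11.5% of loci instead of 19.6%). Ago2+/+ thapsigargin against Ago2-/- tunicamycin was 0 instead of 1 (0.711% of loci instead of 2.19%). That last count was also 0 at a mark of 4-fold (1.01% of loci) and with a pseudocount of 1 FPKM (1.40%). It was 2 at 1.5-fold (5.14%). Ago2+/+ tunicamycin against Ago2-/- DMSO gave 1 at 1.5-fold instead of 0 (3.74% of loci instead of 1.83%). Ago2-/- thapsigargin against Ago2+/+ DMSO gave 1 at 4-fold instead of 2 (1.58% of loci instead of 4.11%). Single log2 ratios with a group listed at 0 were left out here. Of 162 others under the alternatives, 157 kept their side of the mark, 3 passed it and 2 no longer passed it. The sign changed in 1 of them, which was near 0: Igf1r in Ago2-/- thapsigargin against Ago2+/+ DMSO went from -0.0019 to 0.020 when centred on the median of all loci. One that no longer passed was Igfbp2 in Ago2+/+ thapsigargin against Ago2-/- tunicamycin, at -0.76 with a pseudocount of 1 FPKM. The other one, and the 3 that passed, were ratios of Igf1 or Igfbp5 below 1 FPKM in both groups, which the reported counts leave out. No paired analysis was possible because the deposited values are pooled over the libraries of a group, and for the same reason no library could be left out. Precision is limited by the unknown depth and by 1 pooled value per group.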
